A study of Triticum aestivum with 8 samples.

Results

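The difference in cold response between a freeze-resistant (FR, SD16029) and a freeze-susceptible (FS, SD16169) winter wheat line was examined probe set by probe set, as the change with cold acclimation in FR minus the change in FS. Both are azide-induced mutant lines of the cultivar Winoka, so that each genotype was represented by 1 line. The tissue was the crown, the stem base just above the roots, and its RNA was hybridized to 8 Affymetrix wheat arrays in 4 groups of 2: cold-acclimated FR (FR CA, 4 weeks at 4°C), non-acclimated FR (FR NT, 25°C by the labels), cold-acclimated FS (FS CA, 4 weeks at 4°C) and non-acclimated FS (FS NT, 25°C by the labels). NT plants were harvested at the leaf stage at which CA plants were moved to the cold, so that CA plants were also older, and cold and age cannot be told apart within a line. Crowns of 3 biological replicates were pooled for an array, and the arrays of a group are described as technical replicates, so that every p-value below measures the spread between arrays only. Of 61290 probe sets, 175 controls were set aside and 61115 were tested, of which 1273 carried a gene symbol in the array's annotation and 59842 did not. Those without a symbol are named here by their probe set.

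Winter cereals gain freezing tolerance over weeks of growth at low, non-freezing temperature, and the crown must survive for the plant to regrow. In cereals and other plants the CBF transcription factors are made early in the cold and switch on COR and LEA genes, whose products protect membranes and proteins during dehydration. Growth slows at the same time, and genes of cell division and of leaf growth are turned down.

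The values are log2 signals, so that a difference of 1 is a factor of 2 between the changes of the lines. All signals have a floor at 2.15, and array medians lay at 2.86 to 2.95, so that a signal below about 3 was read as low and a fall into that range as a bound. In the 4 groups the arrays of a pair differed by an SD of 0.34 (FR CA), 0.33 (FR NT), 0.25 (FS CA) and 0.32 (FS NT) over the 30557 probe sets above the median. Hybridization spike-ins averaged 10.54 on FR CA array 1, against 11.54 to 11.74 on the other CA arrays and 10.70 to 10.96 on the NT arrays. Poly-A spike-ins, which were added to the RNA, were 0.70 higher in CA than in NT in each line. Genes of the photosystems were bright on all arrays, although the crown was taken without leaf: OEE1 (PsbO of photosystem II) had 13.46 and 13.14 in FR CA, 14.56 and 14.71 in FR NT, 13.61 and 13.58 in FS CA, and 14.71 and 14.52 in FS NT. The annotation used here named no marker that defines crown tissue. In RNA of a whole organ, fewer cells of a type and less RNA per cell cannot be told apart.

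The cold responses of the lines were alike for most probe sets. The difference was within 0.5 of 0 in 91.7% of them, its median was 0.00 and its central 95% ran from -0.64 to 0.66, although 28.9% of probe sets passed the test for a change with cold in FR and 30.1% in FS. The test of the difference itself (limma, with p-values adjusted by the Benjamini-Hochberg method over all 61115 probe sets) called 66 probe sets, or 0.108%. In 39 the FR response lay above the FS response (0.0638%), and in 27 below it (0.0442%). Without adjustment 2734 (4.47%) had a p under 0.05. That share cannot be set against the 0.05 itself, since 14644 probe sets were at the floor on all arrays and could not pass. The calls just inside and just outside the threshold had adjusted p = 0.0482 and adjusted p = 0.0511 in limma.

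Many of the 66 calls were faint. In 37 of them all 4 group means lay below the median, 35 differences were smaller than 0.5, and the smallest was 0.0070, between signals that were nearly constant at the floor. The other 29 had at least 1 group above the median, and 15 had all 4. Since 2 arrays per group leave the spread of a bright probe set poorly known, a second set was described without a test: differences of at least 1 in size in which the 4 CA minus NT array differences of FR did not overlap the 4 of FS. There were 880 such large differences (1.44% of probe sets), 554 with the FR response above the FS response (0.906%) and 326 below (0.533%), and 17 of the 880 were also called. The sizes just inside and just outside were 1.0015 and 0.9989. An unadjusted p under 0.05 was found for 614 of the 880, and 602 had all 4 groups above the median.

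**Figure D1:**
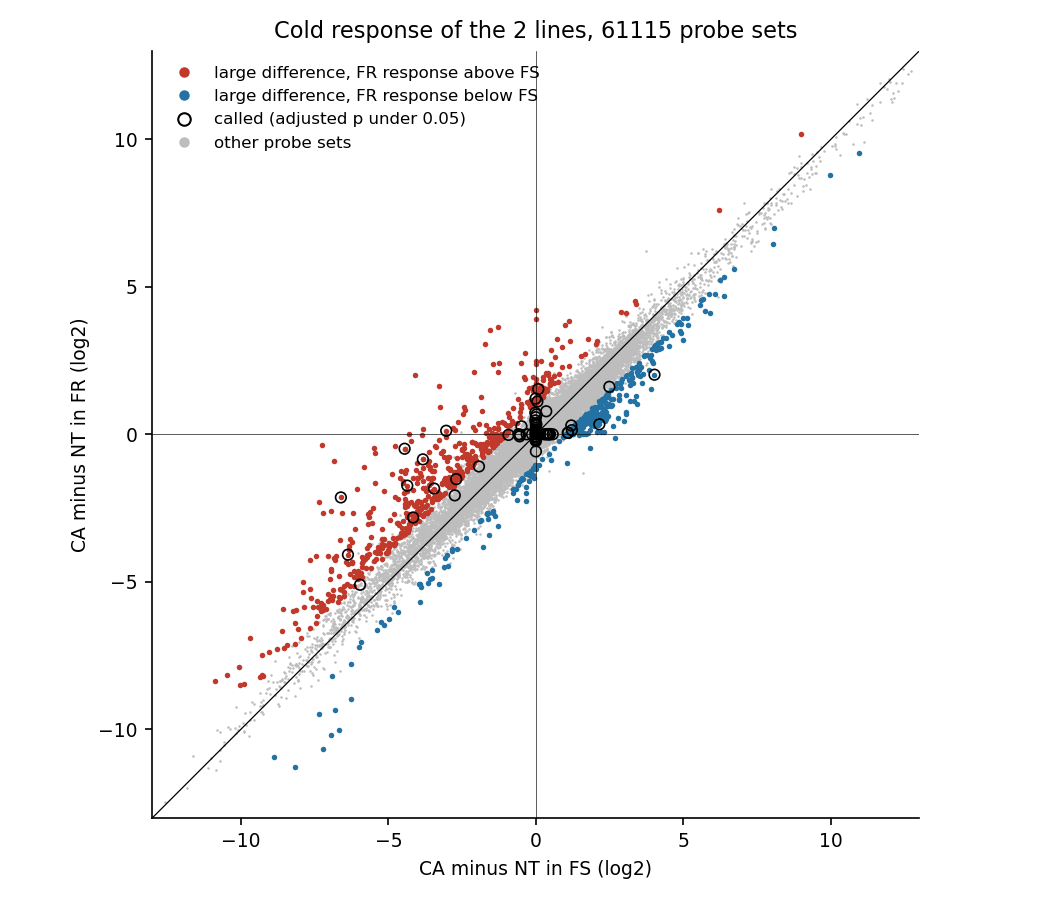
Change with cold acclimation (CA minus NT, log2) in FR on the vertical axis and in FS on the horizontal axis, 1 point for each of 61115 probe sets, with equality on the diagonal. The 554 large differences with the FR response above the FS response (red) lie mostly at the lower left, where both lines fell, and the 326 below it (blue) mostly at the right, where FS rose. Black circles mark the 66 called probe sets, many of them at the origin.

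Sorted by form, the large differences were mostly larger changes in FS. In 344 probe sets both lines passed the test for a fall, and the fall was deeper in FS in 296 and deeper in FR in 48. A further 129 passed it for a fall in FS only and 21 in FR only. Among risers, 128 passed in FS only, 52 in FR only, and of 106 that rose in both lines 93 rose further in FS and 13 further in FR. In 11 the lines went opposite ways, all with a rise in FR and a fall in FS (1 among the calls), and in 89 neither line's own change passed. A form with "only" rests on which line passed a threshold, so that these are descriptions of the 2 tests side by side. Among all 7543 probe sets that fell in both lines the fall was larger in FS in 57.8%, with a median of -1.89 in FR and -1.96 in FS. Among the 8624 that rose in both lines the rise was larger in FS in 63.8%, with a median of 1.52 in FR and 1.62 in FS.

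**Figure D2:**
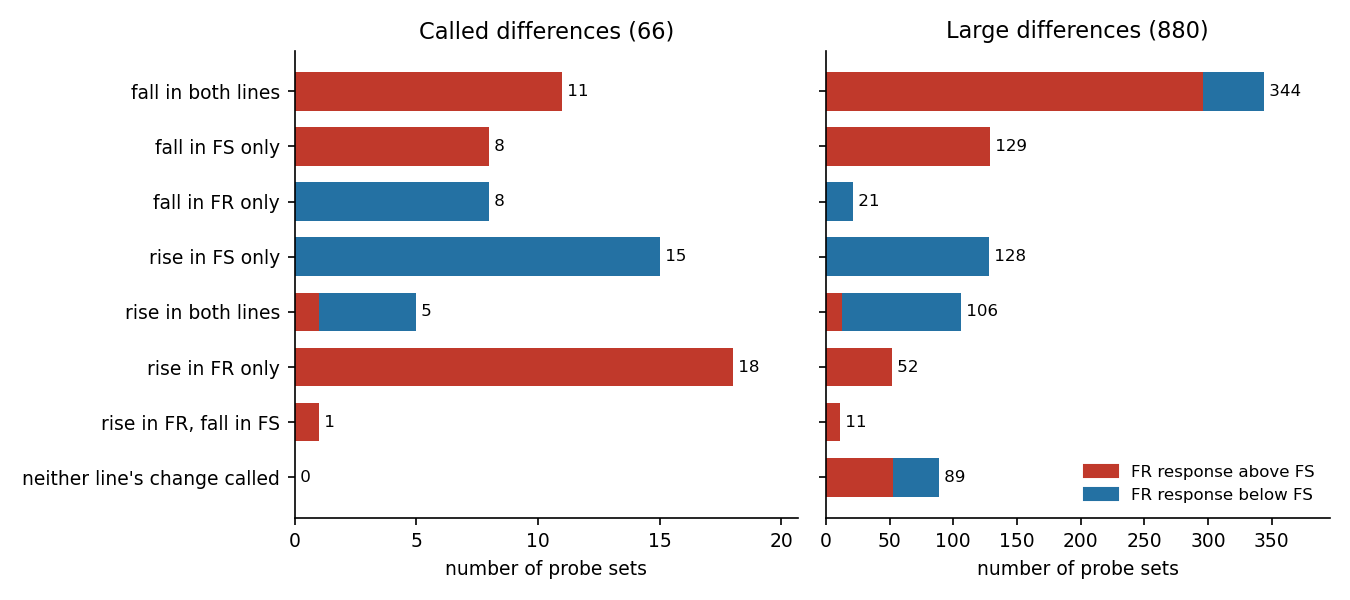
Number of probe sets of each form of the difference, for the 66 called differences (left) and the 880 large differences (right). Red parts of a bar have the FR response above the FS response and blue parts below it, so that the 296 deeper falls in FS and the 129 falls in FS only are red.

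Most large differences were of probe sets in which the lines were close in NT and apart in CA. In 774 of the 880 the lines lay less than 0.5 apart in NT, and in 807 they were further apart in CA than in NT. The corresponding numbers among the 66 calls were 63 and 52. Both sets were chosen by the gap in CA minus the gap in NT, so that a gap in CA or NT was fixed by the choice. The lines were close in NT in general. The median size of the NT gap was 0.09 over the 30557 probe sets with a mean above the median. It was 0.09 in the large differences with FR above FS and 0.12 in those with FR below. Tested directly, FR and FS differed in 228 probe sets in CA (0.373%) and in 13 in NT (0.0213%), and 109 of the 228 were among the 880. The large differences with FR above FS were of well expressed genes: their median group means were 6.49 in FR CA, 8.75 in FR NT, 4.68 in FS CA and 8.74 in FS NT. Those with FR below FS were dimmer, with medians of 4.16 in FR CA, 3.56 in FR NT, 5.46 in FS CA and 3.11 in FS NT. The sizes were unequal too. Of the 177 differences of at least 2, 153 had FR above FS and 24 below, and all 21 of at least 4 had FR above.

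The deeper falls in FS held most of the bright calls. All 11 called probe sets that fell in both lines fell further in FS. Of these, TaAffx.78483.1.S1_at was faint, with 2.15 on all CA arrays, 2.23 and 2.21 in FR NT, and 2.71 and 2.70 in FS NT. Its lines were apart in NT and both at the floor in CA, so that its falls are bounds. The adjusted p-values given here are without a replicate block. With the replicate number as a block, 0 of the 12 called differences of at least 1 with FR above FS passed, and with robust variances 1 did, that of Ta.2882.1.S1_s_at. TaAffx.71647.1.A1_at, the largest called difference, had 11.19 and 11.34 in FR CA, 13.56 and 13.25 in FR NT, 6.70 and 6.96 in FS CA, and 13.27 and 13.61 in FS NT. The lines overlapped in NT and were about 4 log2 units apart in CA. The fall was 4.42-fold in FR and 98.0-fold in FS, a difference of 4.47 ± 0.26 (SE, n = 2 arrays per group; adjusted p = 0.0312 in limma). The other probe set of the same sequence, TaAffx.71647.1.A1_x_at, differed by 5.05 but missed the threshold (adjusted p = 0.194 in limma).

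LOC542847, for which the gene table gives no other name, was the only called probe set with a symbol. Its probe set Ta.2882.1.S1_s_at had 12.77 and 12.64 in FR CA, 13.55 and 13.56 in FR NT, 9.69 and 9.65 in FS CA, and 13.40 and 13.59 in FS NT. Both lines were lower in CA, and the FS CA arrays lay about 3 below the FR CA arrays. The difference was 2.97 ± 0.11 (SE, n = 2 arrays per group; adjusted p = 0.00923 in limma), with a fall of 1.80-fold in FR and 14.2-fold in FS. Its other probe set, Ta.2882.1.S1_at, had 10.34 and 10.58 in FR CA, 11.95 and 11.43 in FR NT, 7.13 and 7.24 in FS CA, and 11.46 and 12.04 in FS NT. It gave 3.34 with adjusted p = 0.144 in limma, and the NT arrays were 0.53 apart in FR and 0.58 apart in FS.

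The other bright calls of this form covered a range of depths. Ta.21419.1.S1_at had 7.94 and 8.03 in FR CA, 12.05 and 12.08 in FR NT, 5.83 and 5.92 in FS CA, and 12.34 and 12.16 in FS NT. It fell by 4.08 in FR and by 6.37 in FS, a difference of 2.29 (adjusted p = 0.0182 in limma). TaAffx.71683.1.A1_at had 9.90 and 10.17 in FR CA, 11.79 and 11.77 in FR NT, 7.35 and 7.51 in FS CA, and 11.74 and 11.85 in FS NT, a difference of 2.61. Ta.556.2.A1_at (1.61), Ta.18463.1.S1_x_at (1.34) and Ta.20205.1.A1_s_at (1.18) also fell in both lines, and their lowest signal was 7.39. The smaller calls Ta.7378.22.S1_at (0.86), Ta.16218.1.A1_a_at (0.84) and Ta.16112.1.S1_at (0.68) had their lowest signal at 8.81. Ta.7378.22.S1_at carries no symbol, but its cluster holds the probe sets of wcH2B-8, a histone H2B gene. It fell by 5.10 in FR and by 5.96 in FS.

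**Figure D3:**
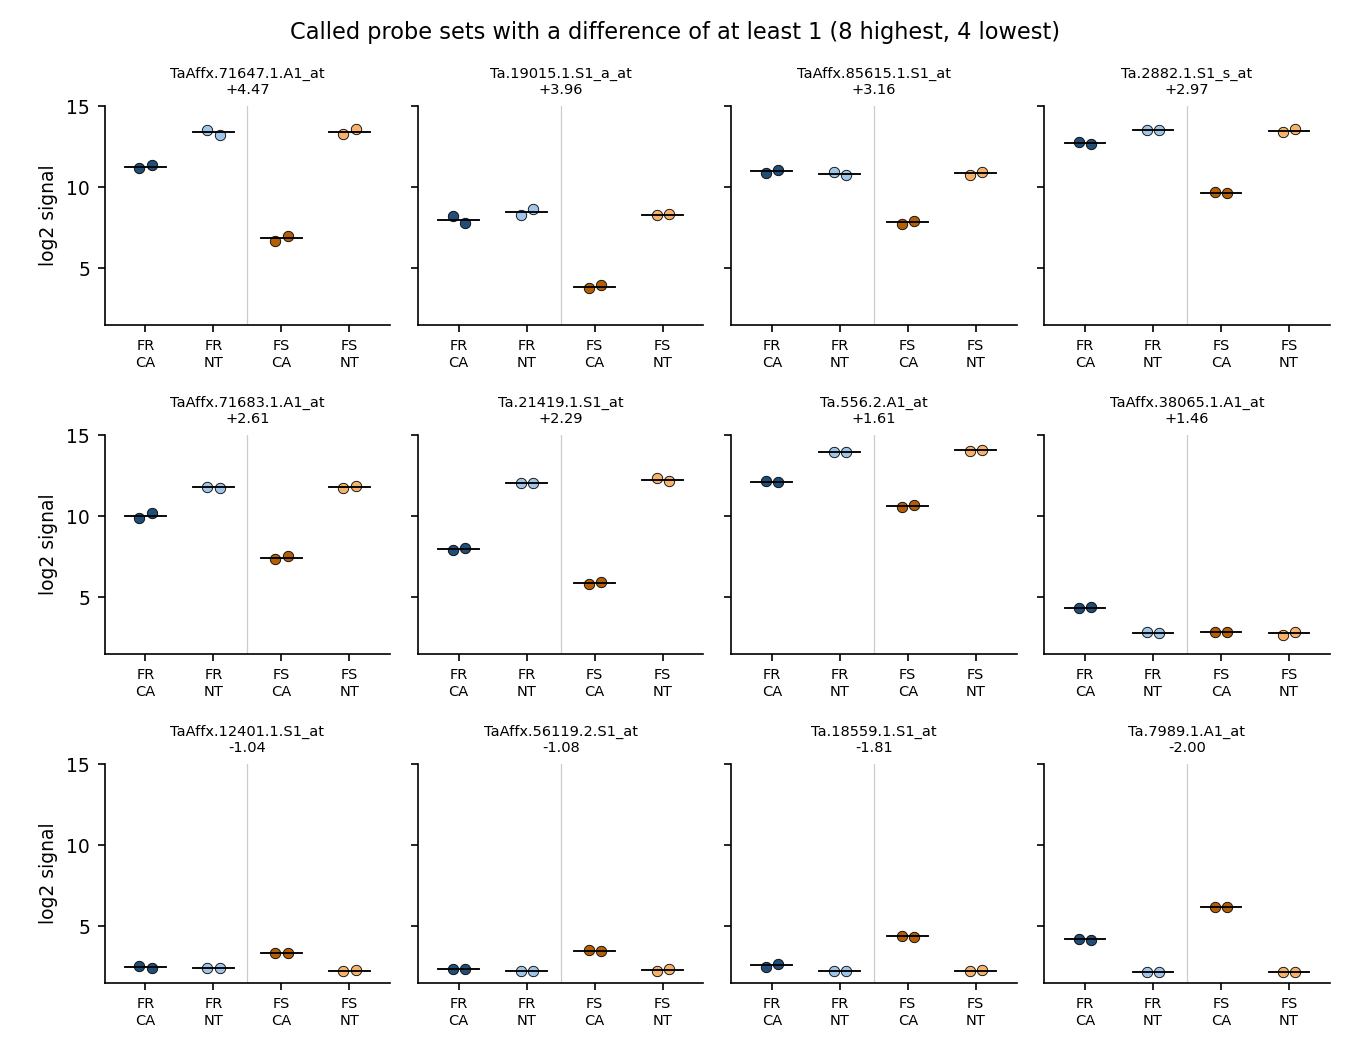
Log2 signal on each of the 8 arrays for 12 called probe sets with a difference of at least 1, the 8 highest and the 4 lowest. Points are arrays, horizontal bars are group means, and the number above a panel is the FR minus FS difference in cold response. In the upper 8 panels the FS CA arrays lie below all others, except in TaAffx.38065.1.A1_at, where the FR CA arrays lie above the rest, and in the bottom row the FS CA arrays lie above all others.

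Falls that passed the test in FS only included the highest of the 880 differences. Among the calls, TaAffx.85615.1.S1_at had 10.90 and 11.04 in FR CA, 10.94 and 10.75 in FR NT, 7.75 and 7.89 in FS CA, and 10.78 and 10.94 in FS NT. The 6 arrays other than FS CA lay between 10.75 and 11.04. The difference was 3.16 ± 0.15 (SE, n = 2 arrays per group; adjusted p = 0.0187 in limma), and the fall in FS was 8.22-fold. Ta.19015.1.S1_a_at had 8.19 and 7.79 in FR CA, 8.29 and 8.66 in FR NT, 3.78 and 3.93 in FS CA, and 8.27 and 8.34 in FS NT, with a difference of 3.96 (adjusted p = 0.0449 in limma).

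Several uncalled probe sets, chosen after their values were seen, moved further. TaAffx.79075.1.S1_at, the highest of the 880, had 9.89 and 9.92 in FR CA, 10.40 and 10.14 in FR NT, 2.15 and 3.79 in FS CA, and 10.01 and 10.45 in FS NT. The FS CA arrays were low but 1.64 apart, 1 of them at the floor, and the difference of 6.90 had adjusted p = 0.145 in limma. With values raised to the array median it was 6.54. Ta.23128.1.S1_at had 8.80 and 8.87 in FR CA, 10.30 and 9.55 in FR NT, 4.05 and 4.34 in FS CA, and 9.68 and 10.34 in FS NT, a difference of 4.72 (adjusted p = 0.111 in limma). Beside LOC100037599, below, the form held Cbf-14 and GA20ox1b, a gibberellin 20-oxidase of the pathway to the growth hormone gibberellin. GA20ox1b (LOC543326) had 3.72 and 3.94 in FR CA, 4.01 and 4.79 in FR NT, 3.49 and 3.17 in FS CA, and 5.19 and 4.66 in FS NT. Its signals lay between 3.17 and 5.19, and the difference of 1.02 did not pass the test (adjusted p = 1 in limma).

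In opposite responses the FR arrays were higher in CA and the FS arrays lower. The 1 called probe set of this form, Ta.4958.1.A1_at, had 9.87 and 9.85 in FR CA, 9.56 and 9.62 in FR NT, 9.04 and 9.10 in FS CA, and 9.56 and 9.56 in FS NT. These are small changes, 0.27 in FR and -0.49 in FS, with little spread (difference 0.76, adjusted p = 0.0334 in limma). The call was lost under 7 of its 8 alternative settings. The 11 large ones ranged from 1.12 to 6.11 and none was called, with adjusted p of 0.0543 to 0.356 in limma.

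Of these 11, Ta.23414.2.S1_at moved furthest: it had 9.06 and 9.16 in FR CA, 6.71 and 7.50 in FR NT, 2.53 and 3.11 in FS CA, and 6.94 and 6.91 in FS NT. It was 4.02-fold higher in CA in FR, while its FS CA mean was below the array median, so that the fall in FS is a bound. The difference of 6.11 (adjusted p = 0.0602 in limma) was 5.95 with values raised to the array median. Both probe sets of TaAffx.43752 went the same way. TaAffx.43752.1.A1_x_at had 7.48 and 7.41 in FR CA, 4.24 and 4.52 in FR NT, 2.54 and 2.54 in FS CA, and 3.93 and 4.57 in FS NT, a difference of 4.77 (adjusted p = 0.0543 in limma), and TaAffx.43752.1.A1_at gave 5.12. Since FS CA was below the array median here, the difference of TaAffx.43752.1.A1_x_at was 4.45 with values raised to the median.

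The other opposite responses were of brighter genes. Both probe sets of Ta.13575 were among them, with differences of 3.86 and 3.40, and Ta.13575.1.S1_at had 10.13 and 10.36 in FR CA, 7.79 and 8.49 in FR NT, 6.93 and 6.69 in FS CA, and 8.28 and 7.94 in FS NT. Both probe sets of Ta.9239 were near the top of the range, Ta.9239.1.A1_at with 13.46 and 13.42 in FR CA, 13.12 and 13.01 in FR NT, 11.86 and 11.67 in FS CA, and 12.98 and 13.09 in FS NT. There the FR arrays rose by 0.37 and the FS arrays fell by 1.27. The others were TaAffx.112230.1.S1_at (4.91), Ta.350.1.A1_s_at (4.22), TaAffx.48658.1.S1_s_at (3.22) and Ta.22249.1.S1_at (1.12). None of the 11 carried a symbol.

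**Figure D4:**
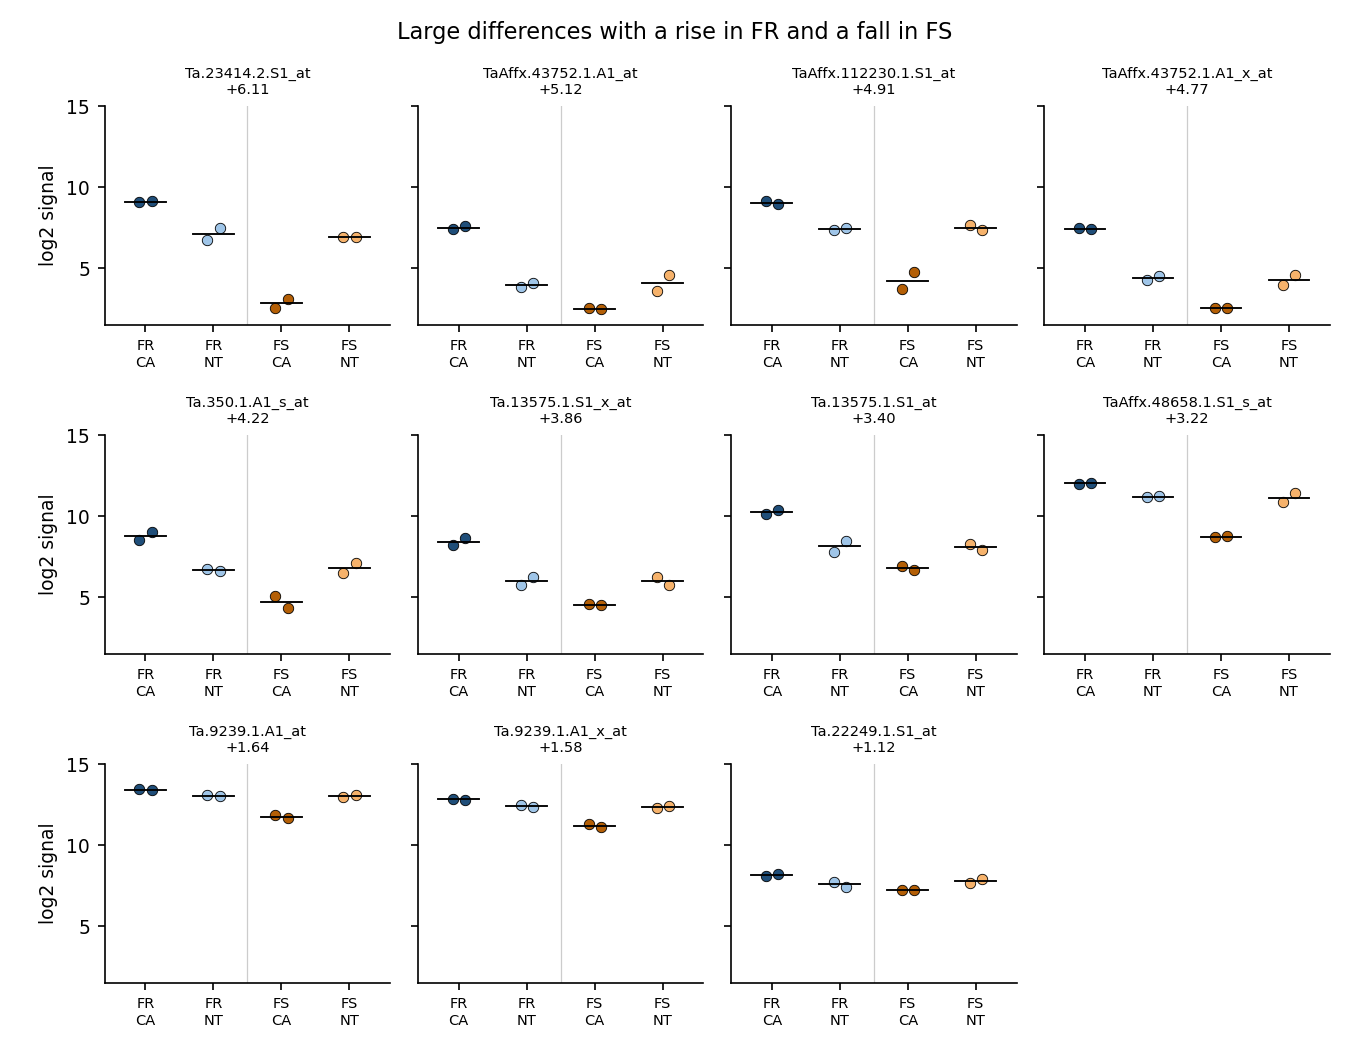
Log2 signal on each array for the 11 large differences in which FR was higher and FS lower in CA than in NT. Points are arrays, bars are group means and the number above a panel is the difference in cold response, from 6.11 down to 1.12. In each panel the FR CA arrays are the highest and the FS CA arrays the lowest of the 8.

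Rises that passed in FR only were mostly from low signals. Of the 18 called ones, 4 had any group above the median, namely TaAffx.38065.1.A1_at (1.46), TaAffx.93972.1.S1_at (1.23), Ta.29866.1.S1_at (1.06) and Ta.16055.1.S1_at (0.76). TaAffx.38065.1.A1_at had 4.30 and 4.37 in FR CA, 2.83 and 2.77 in FR NT, 2.83 and 2.83 in FS CA, and 2.68 and 2.83 in FS NT. Only the FR CA arrays left the low range. The same pattern was larger in uncalled probe sets, chosen after their values were seen. TaAffx.98930.1.A1_at had 6.40 and 5.75 in FR CA and was at 2.15 on the 6 other arrays, a difference of 3.92, or 3.21 with values raised to the array median (adjusted p = 0.0619 in limma). TaAffx.9559.1.S1_at had 7.39 and 5.32 in FR CA, 2.07 apart, and 2.15 on the 6 others. Ta.6564.1.S1_at rose in both lines but further in FR: it had 8.11 and 8.08 in FR CA, 4.41 and 4.33 in FR NT, 5.57 and 5.09 in FS CA, and 4.33 and 4.33 in FS NT, a difference of 2.73 (adjusted p = 0.0846 in limma).

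Rises that were larger in FS led the calls with the FR response below the FS response. Ta.7989.1.A1_at had 4.20 and 4.15 in FR CA, 2.15 and 2.15 in FR NT, 6.17 and 6.20 in FS CA, and 2.15 and 2.18 in FS NT. It left the floor in both lines and reached a level about 2 higher in FS, a difference of -2.0 ± 0.05 (SE, n = 2 arrays per group; adjusted p = 0.00252 in limma). The arrays of each pair differed by 0.05 or less, and the difference was -2.02 with values raised to the array median. Ta.18559.1.S1_at had 2.46 and 2.68 in FR CA, 2.22 and 2.23 in FR NT, 4.42 and 4.35 in FS CA, and 2.20 and 2.26 in FS NT, a difference of -1.81 (adjusted p = 0.0369 in limma). In TaAffx.56119.2.S1_at (-1.08), TaAffx.12401.1.S1_at (-1.04) and TaAffx.12086.2.A1_at (-1.03) only FS CA exceeded the array median, at 3.20 to 3.51. Among uncalled probe sets Ta.15013.1.S1_at had 2.22 and 2.22 in FR CA, 2.45 and 2.22 in FR NT, 4.59 and 5.25 in FS CA, and 2.16 and 2.32 in FS NT, a difference of -2.80, or -2.06 with values raised to the array median.

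Deeper falls in FR were rarer, and the lowest differences of the 880 were of very bright genes. Ta.3249.1.S1_at had 3.46 and 2.85 in FR CA, 13.54 and 14.08 in FR NT, 6.67 and 6.72 in FS CA, and 14.11 and 13.72 in FS NT. It fell by 10.66 in FR and by 7.22 in FS, and the FR CA mean differed from the FS CA mean by -3.54 (difference in response -3.44, adjusted p = 0.164 in limma). Ta.3249.2.S1_x_at (-3.23), Ta.22984.1.S1_x_at (-3.36) and Ta.22984.2.S1_x_at (-3.11) had the same pattern. Signals on the FR CA arrays of these 4 probe sets were 2.48 to 3.87, near the floor, and those on the FS CA arrays 5.55 to 6.95. Among calls, the 8 falls in FR only differed by 0.08 to 0.58 and all lay below the median. The uncalled Ta.867.1.A1_at had 2.77 and 2.59 in FR CA, 4.35 and 3.97 in FR NT, 3.97 and 3.97 in FS CA, and 4.05 and 4.03 in FS NT, a difference of -1.41, or -1.22 with values raised to the array median (adjusted p = 0.230 in limma).

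Probe sets whose names share a cluster number were designed from one group of similar transcripts, so that they can share probes or targets and are not independent. Of 45641 clusters, 786 held a large difference and 64 held 2 or more, together 158 probe sets. In 61 of the 64 the large differences had one sign, positive in 48 and negative in 13. In 20 clusters there were 3 or more, 17 with FR above FS and 3 with FR below.

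The clusters described next held no called probe set. All 6 probe sets of Ta.7022 were large, with differences of 2.08 to 3.31. They fell by 3.20 to 4.64 in FR and by 6.13 to 7.46 in FS. For example, Ta.7022.1.S1_x_at had 6.94 and 7.39 in FR CA, 11.55 and 11.02 in FR NT, 4.65 and 4.37 in FS CA, and 11.02 and 11.56 in FS NT. All 4 of Ta.7143 lay between 2.09 and 5.97: Ta.7143.1.S1_x_at had 11.38 and 11.34 in FR CA, 12.27 and 11.37 in FR NT, 5.91 and 6.70 in FS CA, and 11.30 and 12.30 in FS NT. In FR the CA arrays overlapped the NT arrays, while in FS they were far below. In Ta.28224, 3 of 3 probe sets changed by -0.50 to 0.01 in FR and by -4.42 to -3.28 in FS, and Ta.28224.3.S1_x_at had 8.51 and 8.47 in FR CA, 8.61 and 8.36 in FR NT, 4.02 and 4.04 in FS CA, and 7.93 and 8.76 in FS NT. Its difference of 4.32 had adjusted p = 0.0911 in limma. Ta.5824 (3 of 3, 2.39 to 4.83), Ta.13803 (4 of 4, 3.12 to 4.56), Ta.9347 (5 of 5, 1.52 to 2.77) and Ta.1953 (4 of 4, 1.12 to 2.24) also had the lower response in FS in each probe set. Ta.16082 had 4 of 4 at 1.62 to 2.95, of which those at 2.95 and 2.63 carry the symbol LOC100037599, unnamed otherwise. The clusters with FR below FS were Ta.154 (3 of 7, -1.60 to -1.07), Ta.9564 (3 of 4, -1.27 to -1.16) and Ta.1130 (3 of 3, -1.30 to -1.28), of which Ta.154 and Ta.9564 rose in both lines and Ta.1130 fell.

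**Figure D5:**
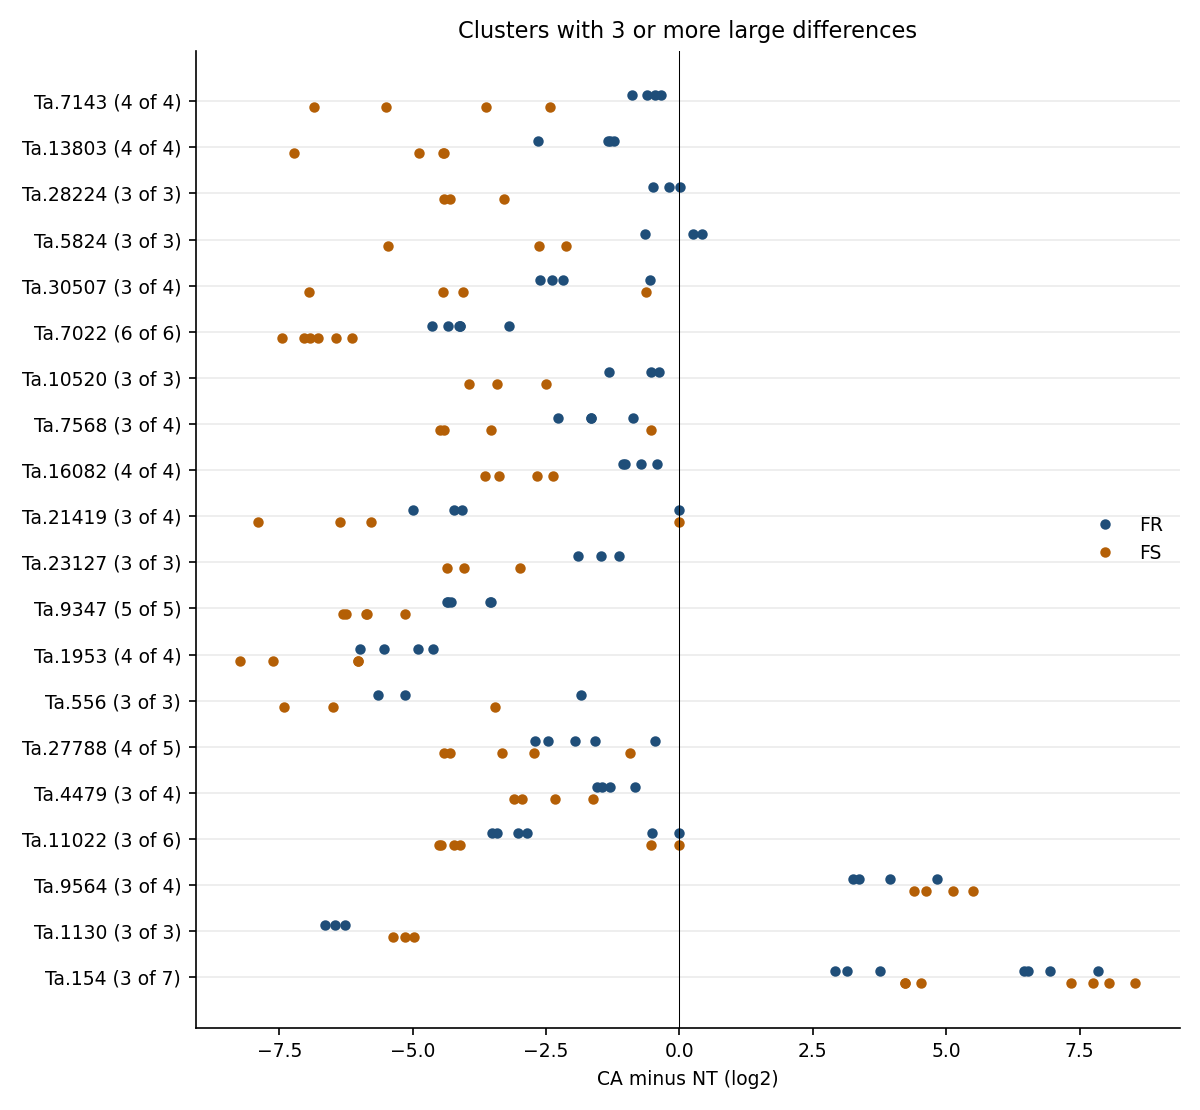
Change with cold acclimation (CA minus NT, log2) of each probe set in the 20 clusters that hold 3 or more large differences, in FR (blue, upper row of each cluster) and in FS (orange, lower row). Numbers in parentheses are the large differences of all probe sets of the cluster. In the top 17 clusters the FS points lie further left than the FR points, except for the probe sets of partly affected clusters that hardly differ.

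Of the 24 large differences with a symbol 23 were not called, and a few were of genes with a known role. WZF1 (LOC543182), a zinc finger protein, had 8.98 and 9.51 in FR CA, 11.35 and 10.43 in FR NT, 7.06 and 7.08 in FS CA, and 10.81 and 11.38 in FS NT. The difference was 2.37 (adjusted p = 0.618 in limma), and the FR CA arrays lay about 2 above the FS CA arrays. PRK (LOC543283), phosphoribulokinase of the Calvin cycle, had 4.74 and 4.78 in FR CA, 11.53 and 12.10 in FR NT, 5.82 and 6.30 in FS CA, and 12.34 and 11.63 in FS NT, a difference of -1.13. CAT1, a catalase that breaks down hydrogen peroxide, had 4.14 and 3.85 in FR CA, 8.66 and 9.47 in FR NT, 5.28 and 5.39 in FS CA, and 9.68 and 8.91 in FS NT, a difference of -1.11. Both fell in each line. Their FR CA arrays lay below their FS CA arrays, but this gap did not pass the test (adjusted p = 0.392 for PRK and 0.452 for CAT1 in limma). 6-FEH (LOC780575), a fructan exohydrolase that releases fructose from stored fructan, had 4.77 and 5.03 in FR CA, 3.93 and 5.07 in FR NT, 6.34 and 6.02 in FS CA, and 4.63 and 4.56 in FS NT by Ta.9641.1.A1_a_at, a difference of -1.19. Its second detected probe set, Ta.30950.1.A1_x_at, gave -0.88. Both had adjusted p of at least 0.506 in limma.

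Lists of genes relevant to cold-acclimated crowns, 10 in all, were read for the same difference. They held 86 probe sets of 48 genes, of which 0 were called by limma and 7 were large, 3 with FR above FS and 4 below. The share of large differences was 8.14%, against 1.44% of all probe sets. Without adjustment 11 (12.8%) had a p under 0.05, against 4.47% of all. These shares are descriptions only. The lists were chosen with earlier results of these data known, and probe sets of the same gene are not independent. Over all probe sets, 14644 were at the floor on all arrays and could be neither large nor under the threshold. The median difference over all probe sets tested was 0.00.

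Of 12 CBF probe sets (11 genes), 3 were large, all with FR above FS, and the median difference was 0.11. The list is a part of the CBF genes on the array. It did not hold Cbf-3 and Cbf-12, among others, which the paper reports as raised in FR but not in FS, also by RT-PCR. The paper reports the same for Cbf-5, Cbf-14 and Cbf-19, which the list did hold, and for Cbf-5 also by RT-PCR. Cbf-5 ranked 7th of 61115 by its difference of 4.93, with 6.88 and 7.58 in FR CA, 4.35 and 2.83 in FR NT, 2.76 and 2.76 in FS CA, and 3.09 and 5.01 in FS NT. The FR CA arrays were above all others, but the NT arrays of each line were 1.52 and 1.92 apart, and the adjusted p was 0.646 in limma. The 95% interval ran from 1.79 to 8.06. Cbf-14 differed by 1.19 and Cbf-19 by 1.17, both at signals below 5. Cbf-A22 was 7.33 and 6.71 in FR CA, 4.55 and 4.77 in FR NT, 7.11 and 6.91 in FS CA, and 4.77 and 4.79 in FS NT, so that the lines overlapped in both states.

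Most COR and LEA genes rose in both lines, with small differences between them. Of 17 probe sets (10 genes), 14 had a lower response in FR than in FS and 3 a higher one, with a median difference of -0.25, and 13 passed the test for a rise in FR and 14 in FS. None of these differences passed the test. Among all 61115 probe sets, 8624 passed the test for a rise in both lines. Of the 13 COR and LEA probe sets that rose in both lines, 10 rose further in FS, against 63.8% of those 8624. Em (EMH2), a LEA gene of embryos, had 5.06 and 3.90 in FR CA, 2.25 and 3.22 in FR NT, 6.52 and 6.36 in FS CA, and 3.22 and 2.46 in FS NT by Ta.25025.1.S1_at, a difference of -1.85, but its 2 other probe sets gave -0.14 and -0.25. Wrab18, another LEA gene, had 12.57 and 13.02 in FR CA, 2.28 and 2.31 in FR NT, 13.40 and 13.41 in FS CA, and 2.41 and 2.38 in FS NT, a difference of -0.51. Its FS CA arrays were both above its FR CA arrays. Rab15, a dehydrin, differed by -1.23, -0.34 and -0.75 in 3 probe sets, and Wcor14A, a COR gene, by 0.14.

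Among histone and tubulin genes, which serve chromatin and the cytoskeleton of dividing cells, falls were common in both lines and the differences small. Of 18 histone probe sets, 17 passed the test for a fall in each line. The median response of the 18 was -6.53 in FR and -6.67 in FS. Among all 61115 probe sets, 28.9% in FR and 30.1% in FS passed for a change in either direction, and 7543 fell in both lines. Of the 18 histone differences 13 were positive, with a median of 0.20 and a range of -0.32 to 0.78. The histone H2B gene wcH2B-8 by Ta.7378.21.S1_at had 8.31 and 8.39 in FR CA, 14.39 and 14.26 in FR NT, 7.58 and 7.53 in FS CA, and 14.22 and 14.39 in FS NT. Its difference of 0.78 (adjusted p = 0.252 in limma) was the largest among the probe sets of this gene, and the others gave -0.15 to 0.42. Of 10 tubulin probe sets, 8 passed the test for a fall in FR and 7 in FS, and the differences were -0.10 to 0.41, 9 of them positive. The listed photosynthesis genes (OEE1, OEE2 and petC, without PRK) differed by -0.31 to 0.00 (5). Listed defence genes differed by -0.24 to 0.80 (8) and the cell wall genes XTH and COMT1 by 0.29 and -0.03. The small heat shock protein gene hsp16.9A was at 2.36 on all CA arrays and differed by -0.02. None of these was large or called.

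The NT arrays were paired unevenly among the large differences. In 46.2% of the 554 with FR above FS, FR NT array 1 was above FR NT array 2 while FS NT array 2 was above FS NT array 1, and in 22.9% the reverse held. Among all 30557 probe sets with a mean above the median these shares were 30.9% and 19.6%. Ta.7143.1.S1_x_at, above, has this arrangement. The array labels hold no information on shared pots or days, and the part of this arrangement in the differences was not tested. Pearson correlations between NT arrays were 0.9951 within FR and 0.9954 within FS, below the 0.9964 to 0.9972 between the lines. Between CA arrays they were 0.9947 within FR, 0.9971 within FS and 0.9936 to 0.9952 between the lines. Without any single array the number of large differences was 1218 to 1436, since fewer array differences then had to be apart, with 743 to 792 of the 880 among them. Without FR CA array 1, whose hybridization spike-ins were low, 1436 were large and 768 of the 880 among them, 178 at 2 or above and 61 at -2 or below.

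The calls moved with the settings. Between 15 and 93 probe sets were called under other settings of the fit and scale, with 46 of the 66 among the 56 called after quantile normalization and 10 of the 66 among the 23 called after a filter on low values. Of those 23, 21 had the FR response above the FS response. Of the 880 large differences, 824 stayed large after quantile normalization and 761 with values raised to the array median. Of the 25 calls that met the rule for named ones, 5 also passed with the replicate number as a block, 0 of the 13 with FR above FS and 5 of the 12 with FR below.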

How the data were processed

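The deposited values are log2 signals of 8 arrays, for which the authors corrected background and normalized by gcRMA in R/Bioconductor (RMA and GCRMA are the tools in the submitters' processing notes). The number of arrays limits the precision. The number of unused columns with values was 0. The values were used as deposited in R 4.3.3 with limma 3.58.1: a mean per group, variances moderated with a trend on intensity (residual degrees of freedom 4, prior 0.623), and the interaction (FR CA minus FR NT) minus (FS CA minus FS NT). P-values were adjusted by Benjamini-Hochberg over 61115 probe sets and called under 0.05, with no filter on low values. Form was set by which line's own CA against NT passed at the same threshold. The code was tested on simulated data. Figures were drawn with Python and matplotlib.

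Named probe sets were all calls with a symbol, the 3 largest calls of each form, the 10 highest and 10 lowest calls, and the CBF and COR/LEA genes, matched through identifiers. Others are named as chosen after their values were seen. Members and lists were chosen with earlier results of these data known. Alternatives were a replicate block, a filter on low values, values raised to the array median, no intensity trend, robust variances, median centring, quantile normalization, a size minimum, leaving out each array, form set by size, and unadjusted p-values. Replicate numbers 1 and 2 recur in each group, but nothing in the labels ties them, and they were not taken as pairs. Gene coordinates and sequences were not used here.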

Additional observations from a re-analysis of the deposited data

Results flagged for a closer look

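The test of the difference between the lines itself passed for 66 probe sets, of which 25 met the rule for named ones, and these are listed here by their FR minus FS difference in cold response (log2, adjusted p under 0.05 in limma, n = 2 arrays per group). Falls that were deeper in FS, or passed in FS only, gave 4.47 for TaAffx.71647.1.A1_at, 3.96 for Ta.19015.1.S1_a_at, 3.16 for TaAffx.85615.1.S1_at, 2.97 for Ta.2882.1.S1_s_at, 2.61 for TaAffx.71683.1.A1_at, 2.29 for Ta.21419.1.S1_at, 1.61 for Ta.556.2.A1_at, 1.34 for Ta.18463.1.S1_x_at and 0.91 for TaAffx.57346.1.S1_at. Rises that passed in FR only gave 1.46 for TaAffx.38065.1.A1_at, 1.23 for TaAffx.93972.1.S1_at and 1.06 for Ta.29866.1.S1_at, and the opposite response of Ta.4958.1.A1_at gave 0.76.

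Rises that were larger in FS, or passed in FS only, gave -2.0 for Ta.7989.1.A1_at, -1.81 for Ta.18559.1.S1_at, -1.08 for TaAffx.56119.2.S1_at, -1.04 for TaAffx.12401.1.S1_at, -1.03 for TaAffx.12086.2.A1_at, -0.90 for TaAffx.50140.1.S1_at, -0.88 for Ta.28492.1.S1_at, -0.56 for TaAffx.129322.1.S1_x_at and -0.47 for TaAffx.40107.4.S1_at. Falls that passed in FR only gave -0.58 for Ta.5645.3.S1_x_at, -0.23 for Ta.17230.1.S1_at and -0.19 for TaAffx.111432.1.S1_at, all 3 below the array median on all arrays.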

How the results depend on the processing

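Against 66 calls, there were 22 with the replicate number as a block (9 with the FR response above FS, 13 below), 23 after a filter on low values (21 and 2), 15 with robust variances (6 and 9), and 17 where a difference of at least 1 was also required (12 and 5). Median centring gave 93 calls, 61 of them with FR above FS, and unadjusted p-values 2734 (1406 and 1328). Among the 28242 probe sets above the array median on all 8 arrays, an alternative chosen after seeing the data, 17 were called, all 17 with FR above and 0 below. Most of the 66 calls with FR below FS had a signal below the median on some array, so that they could not be among these 17. The cause of the shifts between settings was not tested. The correlation of replicate 1 minus replicate 2 between groups was 0.09 to 0.40, and 22 of the 22 blocked calls were among the 66. Of the 25 named calls, the block kept 5, all with FR below FS (Ta.7989.1.A1_at, TaAffx.40107.4.S1_at, Ta.5645.3.S1_x_at, Ta.17230.1.S1_at and TaAffx.111432.1.S1_at), and robust variances kept 3, of which 1 had FR above FS.

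The forms moved with them. Rises in FR only (18 calls) numbered 7 with the block, 1 with the filter, 4 with robust variances, 3 with the size minimum, 3 with form set by size and 0 above the array median on all 8 arrays. Rises in FS only (15) numbered 6, 0, 6, 3, 5 and 0 in the same order. Falls in FR only (8) numbered 0 with the filter, 3 with robust variances, 0 with the size minimum, 0 with form set by size, 0 above the array median, 2 with values raised to it and 1 with centring. Falls in FS only (8) numbered 1 with the block, 3 with the filter, 1 with robust variances, 2 with the size minimum, 3 with form set by size, 3 above the array median, 13 with centring and 5 with quantile normalization. Rises in both lines (5) numbered 1, 2, 0, 2, 2 and 0 over the first 6 of these settings, 14 with centring, 3 with values raised to the array median and 3 with no intensity trend. Falls in both lines (11) numbered 1 with the block, 1 with robust variances, 7 with the size minimum, 29 with values raised to the array median and 27 with centring. Opposite responses (1) numbered 0 with the block, 4 with the filter, 0 with robust variances, 0 with the size minimum, 0 with form set by size, 0 with quantile normalization, 2 above the array median, 13 with values raised to it and 10 with centring. With form set by size, 44 calls had neither line changed by the size required.

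Without a single array 888 (FS NT replicate 2) to 1862 (FR CA replicate 1) probe sets were called, 142 to 1712 with FR above FS and 96 to 1430 below, and all 66 calls were among them in each case. Each of the 8 arrays, when left out, raised the count to many times the 66 of the full fit. The left-out fits assume that the lone array varies like the other groups. Forms then ranged from 24 to 1584 for rises in FR only, 23 to 1366 for rises in FS only, 12 to 994 for falls in FR only, 23 to 812 for falls in FS only, 14 to 91 for rises in both lines, 53 to 86 for falls in both lines and 5 to 10 for opposite responses.

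The large differences (880; 554 with FR above FS, 326 below) were counted under alternatives chosen after seeing the data. Above the array median on all 8 arrays they numbered 566, of which 144 had FR below FS, and at a size of at least 2 they numbered 177 (153 and 24). Without a single array they numbered 1218 to 1436 (688 to 868 and 530 to 646). No difference of a named call, a CBF or a COR/LEA probe set reversed its direction past the threshold. The CBF and COR/LEA probe sets were not called to begin with, and some changed sign without a single array. Cbf-2 then ranged from -0.23 to 2.07, Wrab17 from -0.78 to 1.09 and Wcor14A from -0.69 to 0.98. Others kept their sign, among them Cbf-5 (3.96 to 5.89) and Cbf-14 (0.99 to 1.39). With 2 arrays per group the spread is poorly known, signals near the floor give bounds only, and arrays of pooled plants do not measure plant-to-plant variation.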
